A study of Anser sp. with 4 samples.

Results

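Ventral skin of the Wanxi-White goose at 5 days after molt was compared with skin taken before molt, using 2 of the 4 arrays in a series on feather regeneration. The series holds 1 array for skin before molt and 1 each for 1.5, 5 and 10 days after molt, all from female birds, and each array was hybridised with Cy3-labelled RNA copied from total RNA. Per the labels, skin came from 6 geese kept in a pen of their own. Pooling of their RNA, and the bird behind each array, is not stated. The groups carry different labels for time alone, with no treatment or genotype label, and with 1 array a time the birds and the time cannot be told apart. Of 31550 transcript identifiers on the array, 19456 were compared, namely those with at least 1 probe well above background at 5 days or before molt.

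Feathers grow from follicles, pits of skin in which a cuff of dividing epidermal cells surrounds a core of dermal cells. In molt the old feather is shed, and a new one is built as the epidermal cells multiply, sort into barbs and fill with keratin and with the corneous beta proteins also called feather keratins. Messenger RNA for such structural proteins is abundant in growing feathers. The files pair the identifiers, mostly chicken accessions, with 0 columns of gene symbols or descriptions, so lists of skin and feather genes and markers of the labelled tissue were not analysed here. Identifiers are described by their level, their number of probes and the kind of accession, and 4 of them are named.

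A level is the log2 of an identifier's background-subtracted signal less the 75th percentile of its array, so that a level of 0 lies at that percentile. A ratio is the level at 5 days minus the level before molt, and 2-fold, which is 1 on this scale, was the threshold for calling an identifier higher or lower. Each side is 1 array, so there is no replicate error and no test between times. The error that could be measured is technical. Over 22 probes spotted 5 times, the SD of the ratio between spots was 0.14. Between different probes of 1 identifier it was 0.63, over 3708 identifiers with at least 2 probes well above background on both arrays. The array was annotated on chicken, and how far splice forms, related transcripts or differences in sequence between goose and chicken enter that larger error was not tested. In whole skin, fewer cells of a type and less RNA per cell cannot be told apart.

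Most of the transcriptome stood close to its level before molt, and the largest differences were falls. The median ratio over the 19456 identifiers was 0.01 and the quartiles were -0.49 and 0.47, and 78.3% of identifiers lay within 2-fold. At 2-fold, 1749 identifiers (8.99%) were higher at 5 days and 2476 (12.7%) were lower. At 8-fold the counts were 30 higher (0.154%) and 313 lower (1.61%), and at 16-fold 4 higher (0.0206%) and 139 lower (0.714%). The balance of directions at 2-fold depended on the processing. Of the identifiers past 2-fold, 41.4% were higher, with 47.8% under quantile normalization, 55.3% under median centring, 19.6% under normexp background correction and 8.63% on the scale of the spike-in RNAs. The scale of the spike-ins moved the median of all ratios to -0.56, median centring moved it to 0.18 and normexp to 0.25.

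Detection was lost more often than gained. Before molt 18883 identifiers were well above background, against 17061 at 5 days, the lowest number of the 4 arrays. The lowest probe that counted as well above background was at -4.06 before molt and at -3.67 at 5 days. Each value is that of the lowest probe alone, and identifiers were not counted at a common level. Between the arrays compared, 2395 identifiers were detected before molt and not at 5 days, and 573 were detected at 5 days and not before molt. Nearly all of them were dim where they were seen, with a median level of -3.14 before molt for those lost and -3.05 at 5 days for those gained. Only 56 of those lost and 2 of those gained reached the 75th percentile on the array that detected them. Of those lost, 46.9% were detected at 1.5 days and 56.9% at 10 days, and of those gained 69.8% at 1.5 days and 38.7% at 10 days. Over all 31533 identifiers left after outlier spots were dropped, 18486 were detected at 1.5 days and 18005 at 10 days. Shares for identifiers of a like dim level were not computed. A ratio with a side below background is a bound, which held for 735 of the lower and 283 of the higher calls.

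The falls had a peak among the brightest transcripts. Identifiers were ranked by level on the array of 10 days, which took no part in the ratio. Of the 100 brightest, 27 had fallen at least 16-fold from before molt to 5 days and 70 lay within 2-fold. Between these groups there were 2 identifiers between 2-fold and 16-fold lower, at ratios of -3.93 and -1.64, and 1 identifier was higher, at 1.23. Among the 100 that followed in rank 5 were at least 16-fold lower, and among those ranked 501 to 1000 it was 5 of 500. On the array of 1.5 days, also outside the ratio, the count among the 100 brightest was 16.

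The 27 bright identifiers were high before molt, lowest at 5 days and high again at 10 days, the array on which they had been ranked. Their level before molt ran from 8.77 to 11.89 with a median of 10.94, and at 1.5 days from 3.65 to 9.83 with a median of 8.89. At 5 days it ran from 0.38 to 6.95 with a median of 4.83. That each of the 27 was lower at 5 days than before molt follows from their choice by their fall. The ranges of the 2 arrays stood apart, which also follows from the choice. Levels before molt ran from 8.09 to 11.89 over all of the 100 brightest, a span smaller than 16-fold. At 10 days the level ran from 8.68 to 11.68 with a median of 10.68. The fall at 5 days was 26.4-fold to 336-fold, with a median of 71.7-fold. At 5 days the lowest of the 27 was still above the 75th percentile of its array, so these falls are measured and not bounds.

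Most of the remaining 73 of the 100 brightest were steady by comparison. The median level of the 73 was 9.73 before molt and 9.76 at 5 days, with 9.62 at 1.5 days and 9.55 at 10 days. The kinds of accession differed between the groups. Of the 27, 26 were chicken Ensembl transcripts and 1 was a RefSeq mRNA, while the 73 held 23 Ensembl transcripts, 22 RefSeq mRNAs and 28 other accessions. The identifier at a ratio of -3.93, just short of the 16-fold cut, was among those other accessions. Each of the 27 had 1 probe in use, that is, detected at 5 days or before molt, against 12 of the 73 with 2 or more. Agreement between probes could therefore not be read for any of the 27. Whether they had further probes, dim on both arrays, was not read. Whether these probes also take up signal from related transcripts was not tested, so the number of separate genes among the 27 is uncertain. Among the 100 brightest at 10 days, the count of 27 was 27 to 29 under every alternative processing tried.

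**Figure D1:**
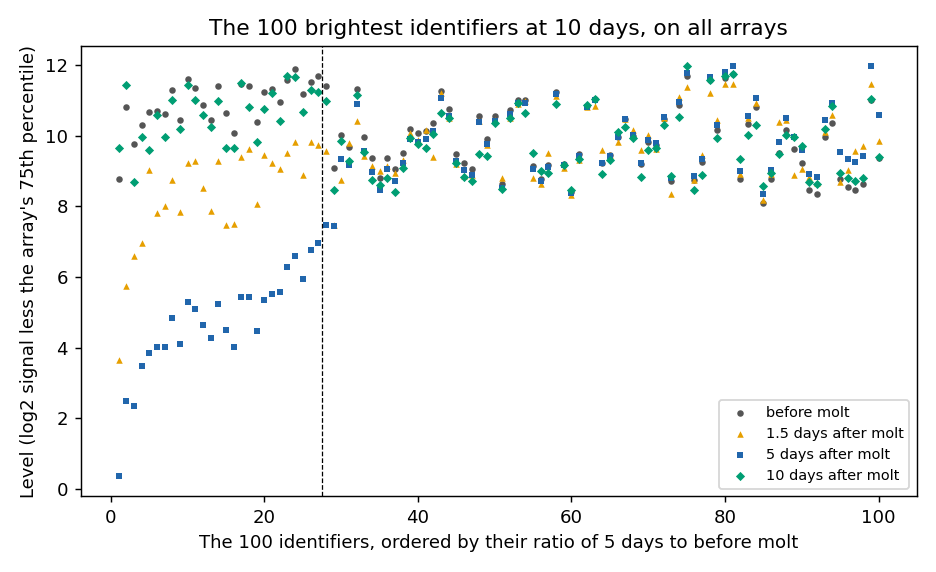
Levels (log2 signal less the 75th percentile of the array) of the 100 brightest identifiers at 10 days, on each of the 4 arrays, ordered from the lowest to the highest ratio of 5 days to before molt. Left of the dashed line, the 27 identifiers at least 16-fold lower at 5 days have squares between 0.38 and 6.95. Each of those squares lies below the circle of before molt for the same identifier, as the choice of the 27 requires. To the right the 4 symbols mostly lie together.

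Across all levels, changes in either direction were most frequent among identifiers of low to middle level. Identifiers were placed by their mean level at 1.5 and 10 days. From -4 to -2, 17.2% were at least 2-fold lower and 9.37% higher, and from -2 to 0 the shares were 14.6% and 10.4%. Between 0 and 2 they were 9.64% lower and 10.0% higher, and from 2 to 4 they were 6.47% and 6.56%. Above 4 the shares were 7.84% lower and 5.23% higher, and 37 of 1263 identifiers there were at least 16-fold lower, or 2.93%. In the bins below 4 that share was between 0.0682% and 0.865%. Levels at 5 days could not fall below the detection bound of -3.67, which limits how far a dim identifier can fall. The 16-fold shares in the lowest bins are therefore held down by that bound. Probes disagreed more at low level, as described next, and how much that error adds to the shares in the lower bins was not tested.

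**Figure D2:**
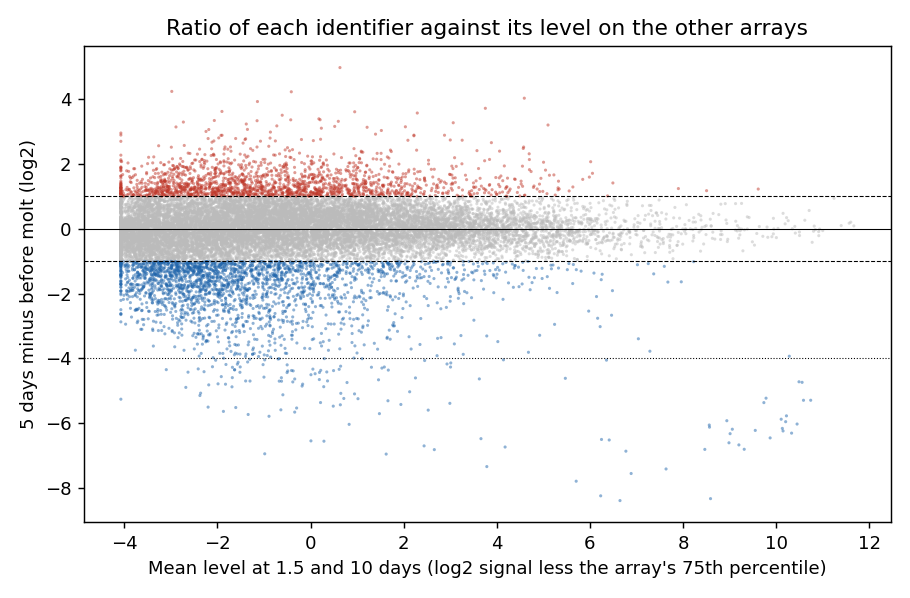
Ratio of 5 days to before molt (log2) of each of 19456 identifiers against its mean level at 1.5 and 10 days (log2 signal less the 75th percentile, values below background set to the detection bound). Red and blue mark identifiers at least 2-fold higher and lower (dashed lines), and the dotted line marks 16-fold lower. At or below the dotted line lie 37 of the 1263 identifiers with a level above 4.

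The identifiers at least 16-fold lower were not confined to bright ones. Of the 139, 112 were outside the 100 brightest at 10 days. The 139 had a median level of 3.09 before molt and -1.74 at 5 days, with -0.37 at 1.5 days and 1.64 at 10 days. At 5 days 39 of them were not well above background, so that their falls are bounds. They comprised 70 Ensembl transcripts (50.4%, against 42.8% of all identifiers compared), 13 RefSeq mRNAs (9.35% against 18.8%), 8 predicted RefSeq transcripts (5.76% against 6.52%) and 48 other accessions (34.5% against 31.9%). Of the 139, 134 or 96.4% had 1 probe in use, against 77.6% of all identifiers compared.

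Agreement between probes was the check on these ratios, and it rose with level. For 3708 identifiers, the first and the second probe by probe name were compared, both being well above background on both arrays. Over all of them the correlation of their ratios was 0.39 (Pearson r, across identifiers, which share both arrays and are not replicates). Where the dimmer probe was under -2 it was 0.24 over 982 identifiers, and from -2 to 0 it was 0.33 over 1261. From 0 to 2 it was 0.56 over 851, and over 2 it was 0.72 over 614. The SD between the 2 probes fell along the same bins from 0.75 and 0.74 to 0.54 and 0.35.

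**Figure D3:**
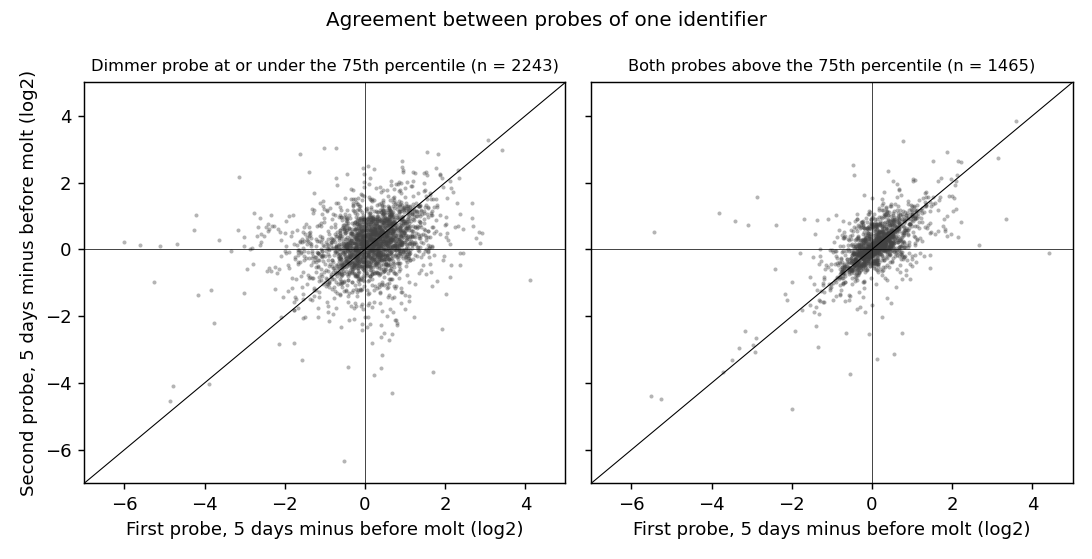
Ratio of 5 days to before molt (log2) on the first and the second probe of 1 identifier, for 2243 identifiers whose dimmer probe was at or under the 75th percentile (left) and 1465 with both above it (right). Points on the diagonal agree, and the points along the axes at left are identifiers in which 1 probe moved and the other stayed near 0.

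A call made on 1 probe was often not seen on another when the dimmer of the 2 probes had a low level. When the first probe was at least 2-fold lower and the dimmer probe lay from -2 to 0, the second was also lower in 20 of 116 identifiers, or 17.2%, with a median ratio of -0.03. In the bin above 2 the second was also lower in 11 of 19, with a median of -1.25. The second probe was at least 2-fold lower in 6.26% of all identifiers in the first of these bins and in 2.93% in the other. Rises agreed in 65 of 161 identifiers, or 40.4%, in the bin from -2 to 0, where the second probe was higher in 12.9% of all. Above 2 they agreed in 23 of 35, or 65.7%, against 7.17% of all. Where the dimmer probe was under -2, rises agreed in 30 of 116, or 25.9%, against 11.8% of all. Falls agreed there in 18 of 94, or 19.1%, against 8.25% of all.

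Among identifiers read by 2 or more probes, all probes of 158 of the 316 higher ones were themselves at least 2-fold higher, and all probes of 90 of the 253 lower ones at least 2-fold lower. Past 8-fold this held for 5 of 5 higher and 11 of 13 lower identifiers. The call rests on the mean of the same probes, so at 8-fold this agreement is in large part built in. In 85 of 4349 identifiers, or 1.95%, 1 probe was at least 2-fold higher and another at least 2-fold lower.

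Deep falls on 1 probe were not always shared by the identifier's other probes. Among identifiers with 2 or more probes, 89 probes were at least 8-fold lower at 5 days. For 42 of them the mean of the identifier's other probes was also at least 2-fold lower, with a median of -2.77. For 41 the other probes stayed within 2-fold, with a median of 0.15, and for 6 they were at least 2-fold higher. By identifier the counts were 31, 41 and 6, since a fall shared by probes of 1 identifier counted each probe. The 42 and the 41 had similar medians of their own, -3.80 and -3.67, and similar levels before molt, at medians of 1.91 and 1.72.

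The disagreement was seen again on the 2 arrays that the ratio does not use. Between 1.5 and 10 days, the 41 probes with steady companions were higher at 10 days by a median of 1.54 on the log2 scale, while the other probes of the same identifiers stood at -0.30. For the 42 probes whose companions also fell, the medians were 1.72 for the probe and 1.28 for the others. In the other direction 23 probes were at least 8-fold higher at 5 days. Of these, 14, from 10 identifiers, had other probes also at least 2-fold higher, and 8, from 8 identifiers, had others within 2-fold. Which transcript such a probe reads was not tested.

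The named identifiers were those with the largest ratio each way among 188 identifiers. In these, the 2 or more probes in use were all well above background on both arrays and all past 2-fold in the same direction. Of the 188, 132 were higher and 56 lower. ENSGALT00000041377, a chicken Ensembl transcript, was the lowest. In the order before molt, 1.5, 5 and 10 days, its first probe read 2.94, -1.46, -1.92 and 1.27, and its second read 3.73, -0.11, -0.81 and 1.76. Both probes were lowest at 5 days, and the mean of their ratios was -4.70, a 26.0-fold fall with a standard error of 0.45 from the pooled SD between probes. Under normexp the ratio was -3.25, a shift larger than that error.

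XM_419175, a predicted RefSeq transcript, was next, with a ratio of -4.44 or a 21.6-fold fall, and a ratio of -2.61 under normexp. In the same order of times the first of its probes read 3.65, 0.77, -1.14 and 4.28, and the second read 1.27, -1.97, -2.82 and -2.31. The probes agreed on the fall at 5 days, as the choice required. They parted at 10 days, when the first stood above its level before molt and the second stayed low.

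NM_205473, a RefSeq mRNA, had the largest rise of the 188, 13.2-fold with a ratio of 3.72, which was 2.84 under normexp. Its probes read 2.48, 4.43, 6.07 and 4.31, and 1.24, 3.12, 5.09 and 3.16, from before molt to 10 days. On both probes before molt was lowest and 5 days highest. ENSGALT00000027247, a chicken Ensembl transcript, was 9.04-fold higher with a ratio of 3.18, which was 1.66 under normexp. Its first probe stood at -0.96, 0.19, 2.12 and -0.25 over the 4 times and its second at -2.47, -1.54, 0.81 and -1.30. In both of the higher identifiers 1.5 and 10 days lay between before molt and 5 days. The means at 1.5 and 10 days differed by -0.04 and -0.10 on the log2 scale, less than the error between probes. Over that step the 2 probes went in opposite directions, by -0.11 and 0.03 in NM_205473 and by -0.43 and 0.24 in ENSGALT00000027247.

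**Figure D4:**
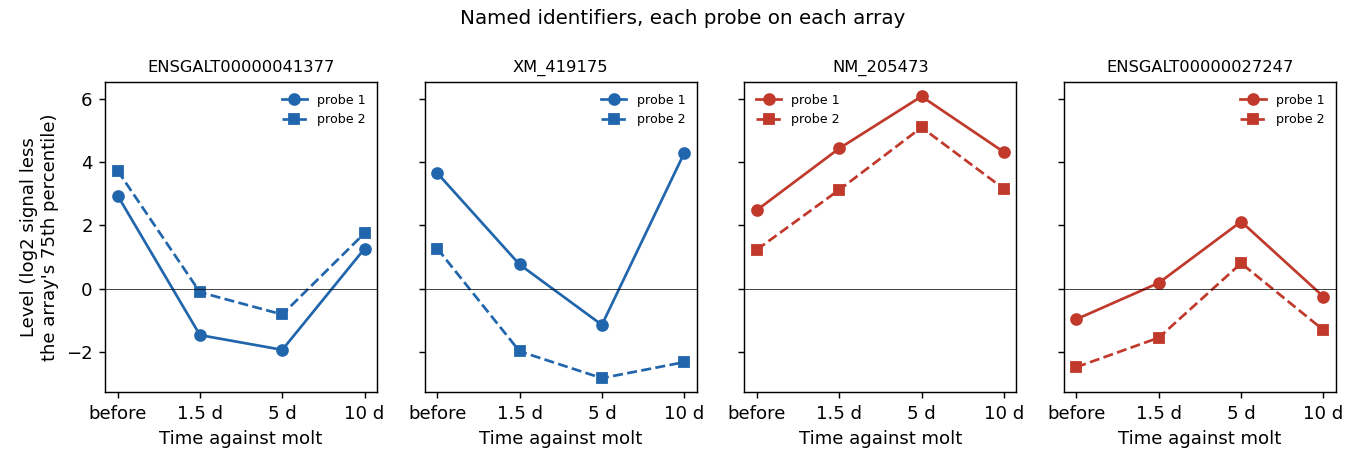
Level (log2 signal less the 75th percentile of the array) of each probe of the 4 named identifiers on the 4 arrays, with 1 array a time and no replicate. The 2 probes of each move in the same direction at every step up to 5 days, and those of XM_419175 stand apart at 10 days, at 4.28 and -2.31. Agreement from before molt to 5 days was required for naming.

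The kinds of accession differed in their balance. Of 3651 RefSeq mRNAs, 9.26% were at least 2-fold higher and 8.46% lower, and of 8325 Ensembl transcripts 9.84% and 12.3%. For the 1269 predicted RefSeq transcripts the shares were 7.72% and 15.9%, and for the 6211 other accessions 7.95% and 15.2%. The kinds also differed in level and in number of probes. The median level at 1.5 and 10 days was -0.04 for RefSeq mRNAs and -1.28 for other accessions, and 53.2% of the first and 2.62% of the second had 2 or more probes in use. Their part in the difference was not tested.

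The times outside the comparison were read for the same identifiers, as levels. The 2476 lower identifiers had a median level of -0.46 before molt and -2.55 at 5 days, with -2.02 at 1.5 days and -1.15 at 10 days. The 1749 higher ones stood at -2.05 before molt and -0.57 at 5 days, with -0.80 at 1.5 days and -1.22 at 10 days. These medians for before molt and 5 days follow from the choice of the identifiers. The 90 identifiers whose every probe was lower had medians of 0.65, -0.95, -1.70 and -0.23 from before molt through 1.5 and 5 to 10 days, and the 158 whose every probe was higher had -1.22, -0.01, 0.50 and -0.45. In all 4 sets the median at 1.5 days was nearer to that at 5 days than to that before molt, and the median at 10 days lay between before molt and 5 days.

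The step from 1.5 to 10 days uses neither array of the comparison. On the scale as reported it ran the other way from the ratio at 5 days. Of the lower identifiers, 40.1% were at least 2-fold higher at 10 than at 1.5 days and 2.87% lower. Over all 19456 identifiers the shares were 9.39% and 7.09%. Of the higher identifiers, 21.3% were at least 2-fold lower at 10 than at 1.5 days and 4.12% higher. The median difference was 0.75 for the lower and -0.42 for the higher identifiers, where it was -0.02 over all. Of the 139 identifiers at least 16-fold lower, 116 were at least 2-fold higher at 10 than at 1.5 days and 0 were lower by that much. Among identifiers with every probe past 2-fold, 37 of 90 lower ones were at least 2-fold higher at 10 than at 1.5 days and 2 lower, and 35 of 158 higher ones were lower and 2 higher. On the scale of the spike-ins identifiers were called anew. The 507 called higher there had a median difference of -0.01 and the 5370 called lower 0.92, against 0.49 over all identifiers. The identifiers called higher as reported were not read on that scale. The spike-in scale shifts every difference alike by construction, and it moved the median over all from -0.02 to 0.49. The fall of the higher identifiers from 1.5 to 10 days is therefore stated relative to all identifiers only.

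**Figure D5:**
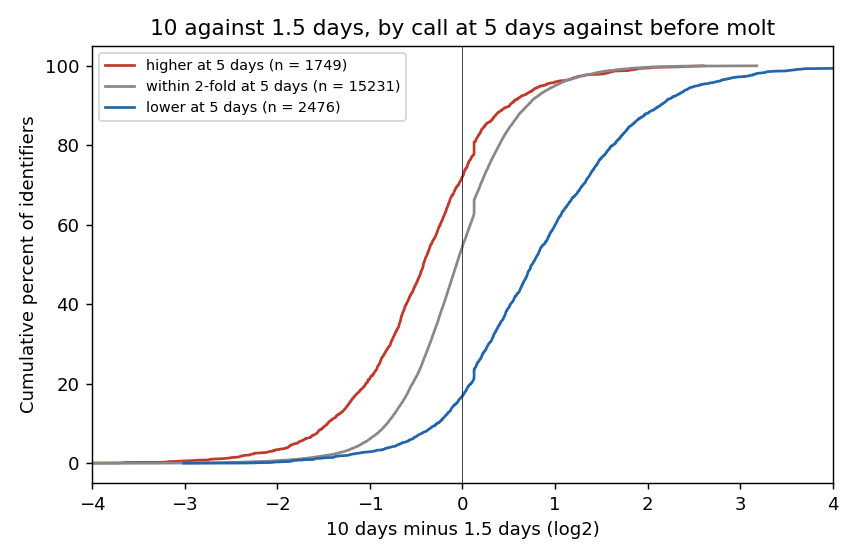
Cumulative percent of identifiers by their difference between 10 and 1.5 days (log2), for the 1749 identifiers at least 2-fold higher at 5 days than before molt, the 2476 lower and those within 2-fold. The curve of the lower identifiers lies to the right, at a median of 0.75, and that of the higher ones to the left, at -0.42.

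Read on a probe that had not made the call, the same pattern was smaller. For 387 identifiers whose first probe was at least 2-fold higher at 5 days, the second probe had a median ratio of 0.80 and a median difference between 10 and 1.5 days of -0.31, against 0.17 and -0.15 over all 3708. For 273 whose first probe was at least 2-fold lower, the second had medians of -0.21 and 0.08.

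Both arrays of the comparison lay on 1 slide, per the file headers. Of 43803 non-control spots, 57.5% were well above background before molt and 52.4% at 5 days, and 0 were saturated. When the slide area was divided into 16 blocks, the median ratio of a block ran from -0.02 to 0.20. The part of slide position in single ratios was not tested.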

How the data were processed

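The authors' scanner files hold spot intensities made with Agilent Feature Extraction 10.7, per the submitters' processing notes, and release 10.7.3.1 per the file headers, on a design annotated on galGal3. The processed intensity is already background-subtracted and not scaled between arrays. The deposited table of log2 values has a median of 3.74 in all 4 columns, as after quantile normalization. The steps behind it were not given in the sources used here, and it served as an alternative. Flags of 0 or 1 per spot in the deposited files gave detection and outliers.

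Levels are log2 of the processed signal less each array's 75th percentile over non-control spots. Outlier spots on any of the 4 arrays were dropped, and 39 probes with them. Means were taken over the spots of a probe, then over an identifier's probes that were detected at 5 days or before molt. A value below background was set to the higher of itself and the lowest probe value well above background on its array. Python 3.11.15, numpy 2.4.6, pandas 2.3.3 and scipy 1.17.1 were used, and limma 3.58.1 under R 4.3.3 for normexp (offset 50), on the median spot signal because a mean signal was not among the columns used. The counting was tested on simulated data in which all probes of an identifier were given the same change and no detection bound applied. Bounds, and probes of 1 identifier that change differently, were outside that test. The identifiers and lists were chosen with earlier results of these data known. With no gene names, the rule allowed 2 identifiers each way, those with the largest ratio among identifiers with 2 or more probes all past 2-fold, and it was read to require every probe in use to be well above background on both arrays. Probe sequences and chromosome positions were not used here, so the planned gene lists and neighbouring transcripts were not analysed. The number of arrays limits the precision.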

Additional observations from a re-analysis of the deposited data

Results flagged for a closer look

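The E1A spike-in RNAs, which enter none of the counts of the report as reported, stood higher against the goose signal at 5 days than before molt. For 6 of these probes, of middle signal and spotted 32 times, the shift relative to the 75th percentile was 0.57 ± 0.06 on the log2 scale (SD over the 6 probes, 1 array a side), with a range of 0.48 to 0.63. It drew attention because it lies in control spots outside the comparison. The amount of spike-in and the fraction of total RNA that is messenger RNA cannot be told apart with 1 array a time.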

How the results depend on the processing

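With 1 array a side no replicate could be left out. No paired analysis was possible because each group has 1 array. Of 8 alternatives, quantile normalization, median centring, detection on both arrays, use of the brightest probe, and the authors' deposited log2 values left the counts of higher and lower identifiers within 1.5 times. With no filter on dim probes 2794 were higher, and 30.4% of identifiers past 2-fold had every probe past 2-fold, against 43.6%. Under normexp 244 were higher and 1003 lower, and the SD between probes was 0.50. On the scale of the spike-ins 507 were higher and 5370 lower, a shift of every ratio alike by construction. The 4 named ratios kept their direction under all 8 alternatives, which their size made likely, since they were chosen as the largest each way. Under normexp they were -3.25 for ENSGALT00000041377, -2.61 for XM_419175, 2.84 for NM_205473 and 1.66 for ENSGALT00000027247. The normexp setting added an offset of 50 to each spot's signal. The median processed signal of a spot was 15.2 before molt and 11.3 at 5 days. Before any scaling between arrays, adding a constant to both sides makes a ratio smaller in size by construction, and more so for dim probes. After scaling this need not hold for every ratio. The median of all ratios was 0.25 under normexp, against 0.01 as reported. How much of the smaller values and lower counts under normexp came from the offset was not tested. With the brightest probe alone, the share and the SD have no value. Signal over background limits the ratios of dim probes. Alternatives for gene lists and for neighbours on the chromosome were not run, since the identifiers had no names or positions here.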

Other observations

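Identifiers with 1 probe in use and with 2 or more differed in balance. Of the first, 1433 of 15107 were at least 2-fold higher and 2223 lower, and of the second 316 of 4349 were higher and 253 lower. The second counts are of means over probes, so single probes were also set side by side at matched level. For probes with a mean level of 0 to 2 at 1.5 and 10 days, 11.8% of 2721 probes of the first kind were at least 2-fold lower and 11.4% higher. Of 2553 probes of the second kind, 5.91% were lower and 11.8% higher. Above a level of 4 the shares lower were 9.46% of 941 and 3.32% of 1356, and those higher were 5.21% and 5.31%. From -2 to 0 the shares lower were 17.7% and 10.8%, and those higher 10.8% and 14.5%. Under -4 there was little between the kinds, with 11.3% and 11.5% lower and 6.66% and 5.96% higher. Higher identifiers made up 39.2% of calls for 1 probe and 55.5% for 2 or more, 52.4% and 72.2% under median centring, 18.3% and 27.3% under normexp, and 8.63% and 8.61% on the scale of the spike-ins. What sets these identifiers apart was not tested.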
